A study of Mus musculus with 4 samples.

Results

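Transcripts that are made mainly in the liver were followed across 4 arrays of mouse adipose tissue. The set was defined by name: 38 gene symbols of the major urinary proteins, the serpins, plasma carriers, apolipoproteins, clotting proteins and liver enzymes, each looked up as the gene name of an array probe. Probes were found for 35 of the 38 symbols (48 probes, 57 spots), out of 22066 genes that could be named on the array. No probe carried the names Mup1, Mup7 or Serpina1b. The symbols were selected because they were far lower in ASK1-deficient epididymal white fat, so the contrast in that depot is given as a description of how the set was picked and supports nothing by itself. The rule does not use the contrast in brown fat, although results of these data were known when the symbols were chosen.

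RNA from interscapular brown adipose tissue (iBAT) and epididymal white adipose tissue (eWAT) was compared between wild-type (WT) mice and mice lacking ASK1 (ASK1KO), the stress-activated kinase encoded by Map3k5. All animals were males aged 10 weeks on the C57BL/6 J background, and the deletion was present in the whole body. Each of the 4 conditions was a single one-colour array of RNA pooled from 3 mice, so no value has a biological error, no test between genotypes was possible within a depot, and a difference between pools cannot be told apart from a difference between individual dissections. WT and ASK1KO animals came from separate breeding, so genotype and colony cannot be told apart either. The only error that could be measured was technical: over probes printed at 5 or more spots, the SD of the log2 ratio between ASK1KO and WT had a median of 0.06 in eWAT (292 probes) and 0.09 in iBAT (276 probes).

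Hepatocytes make most plasma proteins, and the liver is the chief source of albumin, fetuin-A, the fibrinogen chains and the apolipoproteins that leave the liver on lipoproteins. Major urinary proteins are small lipocalins that the mouse liver releases into blood, that are filtered into urine and that carry volatile pheromones. Their genes, like those of the Serpina1 group of protease inhibitors, form tandem clusters of near-identical copies.

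Because of that likeness, the probe sequences set the limits of what can be said about single genes of the clusters. The 60-base Mup3 probe (mm9, chr4:61745794-61745853) is shown with the probes on the same array that differ from it at 8 or 9 bases. Capitals mark the bases that differ from the Mup3 probe, all sequences run 5′ to 3′, and the unnamed probes carry no gene symbol in the files.
Mup3: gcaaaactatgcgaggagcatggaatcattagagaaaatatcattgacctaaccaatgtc
unnamed probe 1: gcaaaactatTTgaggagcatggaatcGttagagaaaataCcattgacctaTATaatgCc
unnamed probe 2: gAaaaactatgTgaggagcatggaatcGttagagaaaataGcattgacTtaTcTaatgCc
unnamed probe 3: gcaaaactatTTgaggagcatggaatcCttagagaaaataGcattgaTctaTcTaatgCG
Mup6: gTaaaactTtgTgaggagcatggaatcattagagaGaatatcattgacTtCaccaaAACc

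Whether a transcript with 8 mismatches binds the Mup3 probe could not be measured here. The signals of unnamed probe 2 were 86.3 in WT iBAT, 184 in ASK1KO iBAT, 2247 in WT eWAT and 38.4 in ASK1KO eWAT. Unnamed probe 3 read 109, 247, 2885 and 45.6 in the same order. Both were highest in WT eWAT and lowest in ASK1KO eWAT, as was the Mup3 probe once scaled for array brightness. Unnamed probe 1 passed background in ASK1KO iBAT (68.6) and WT eWAT (821) and not on the other arrays, and the Mup6 probe passed in WT eWAT only (291), so the order of the other arrays could not be read for these probes.

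The same was seen for the first Mup20 probe (mm9, chr4:61713671-61713730), which reads the transcript of darcin, a Mup that attracts female mice to male scent. A probe for the pseudogene Mup-ps21 differs from it at 6 of 60 bases, again in capitals.
Mup20: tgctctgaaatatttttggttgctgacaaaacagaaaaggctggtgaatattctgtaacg
Mup-ps21: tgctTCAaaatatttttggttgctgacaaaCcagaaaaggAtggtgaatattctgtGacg

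The Mup-ps21 probe gave 895 in WT eWAT and was not well above background in ASK1KO eWAT (4.17) or WT iBAT (16.8), with 60.1 in ASK1KO iBAT. Its ratios were therefore bounds, at or below -5.35 in eWAT and at or above 1.55 in iBAT on the log2 scale.

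Among the Serpina1 copies the overlap was direct. Probes named Serpina1a, Serpina1c and Serpina1e (mm9, chromosome 12) share a run of 29 bases, and the first pair share a run of 47 bases. The shared stretch is printed because 3 named members read it together.
Serpina1a, Serpina1c and Serpina1e: gtcatccttccttctgaattgggttcctt

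Of the 48 probes, 9 list transcripts of more than 1 gene, and these belong to 8 members. Mup1 is among the transcripts listed for 3 probes of other members and Serpina1b for 2, so their RNA would be read under other names, whereas no member probe lists Mup7. The Kng1 probes list Kng2 as well, and 1 of the Cyp3a11 probes lists other Cyp3a genes. Counts of Mup and Serpina1 genes below are thus not counts of independent readings.

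**Figure D1:**
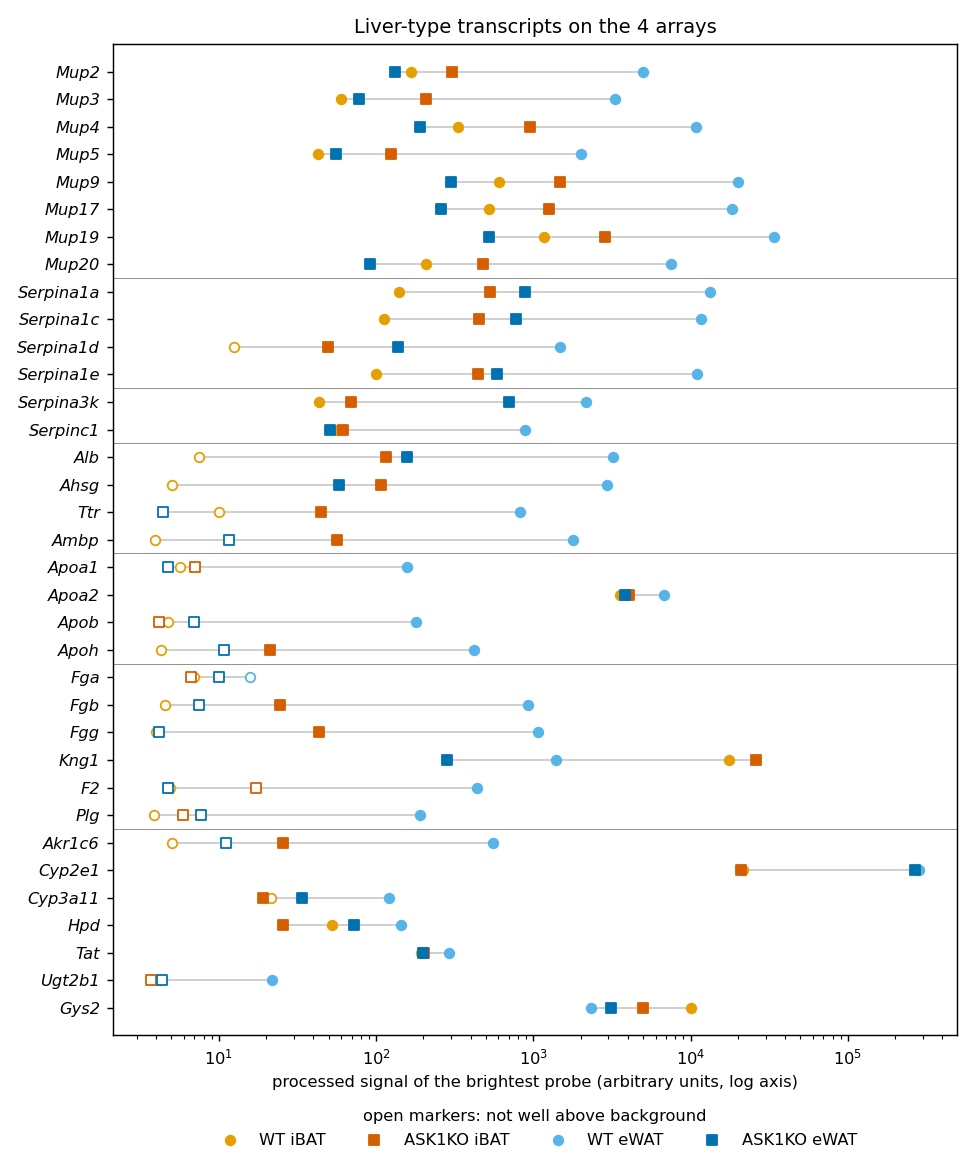
Processed signal (arbitrary units, log axis) of the probe with the highest mean scaled level for each of the 35 members, grouped by role with thin lines between groups; filled markers are well above background and open markers are not. WT eWAT is the rightmost marker for most members, while the 8 Mup genes also place ASK1KO iBAT to the right of WT iBAT.

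On array signals scaled to the 75th percentile of each array, WT eWAT gave the highest level for 40 of the 48 member probes. In WT eWAT all 35 members had a probe well above background, compared with 23 in ASK1KO eWAT, 29 in ASK1KO iBAT and 19 in WT iBAT. The arrays themselves differed less than this, with 28985 to 33389 of 55681 probes well above background, and the lowest signal that passed lay between 17.3 and 20.7. A total of 16 member probes passed in WT eWAT and not in ASK1KO eWAT, and 0 did the reverse. In iBAT, 13 member probes passed in ASK1KO and not in WT, and 0 the reverse. No spot was saturated.

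In eWAT, 29 of the 35 members were at least 2-fold lower in ASK1KO, 19 of them with both arrays well above background and 10 by a bound. By the same rule 1.64% of the 16120 genes detected in eWAT were lower, and since the members were picked on this contrast nothing is read from the difference. The 23 members measured on both arrays had a median log2 ratio of -3.96, and all genes a median of 0.02. The member nearest the 2-fold line on the inside was Serpina3k at -1.52, and the nearest outside was Hpd at -0.90. Of the 20 genes with the lowest measured ratio in eWAT, 15 were members, and the other 5 were Gbp2b (-5.37), a guanylate-binding protein, Ucp1 (-4.63), the uncoupling protein of brown fat, Hpx (-3.75), the haem carrier hemopexin, Cyp2d26 (-3.62) and Gm7298 (-3.37). This ranking leaves out genes dim in ASK1KO eWAT. Of the 36 genes at least 8-fold lower there by a bound, 9 were members, and the strongest bound was that of Slc6a7 (-12.8), not a member.

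In iBAT, 16 of the 29 members detected there were at least 2-fold higher in ASK1KO, 10 measured and 6 by a bound, against 1.28% of 15166 detected genes. A single member, Hpd, was at least 2-fold lower, against 1.31% of genes. That call was lost after normexp background correction and when the percentile was taken over probes detected on all 4 arrays (-0.99). The 19 members measured on both iBAT arrays had a median log2 ratio of 1.21 and all genes one of -0.07. Much of this lay in the clustered copies: 11 of the 16 were Mup or Serpina1 genes, and 5 of the 17 other members detected in iBAT were higher. The 8 of those others that were measured had a median of 0.00. All 5 higher ones rest on bounds and are not in that median. The remaining others, dim in WT iBAT, had bounds above 0 too, from 0.05 (Apoh) to 0.70 (Cyp3a11). When each family was counted as 1 unit, 7 units were higher. The median was 0.046, again without members that had only bounds. After normexp background correction the count of higher members was 9.

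The direction was thus opposite in the depots for 16 members, which were lower in ASK1KO eWAT and higher in ASK1KO iBAT. Among the 16520 genes detected in either depot there were 22 such genes, the 16 members included. Hpd, the single member lower in ASK1KO iBAT, was short of 2-fold in eWAT (-0.90). The 6 other genes with opposite calls were Fabp1, the liver fatty acid-binding protein, Gc, the vitamin D carrier, Hrg, histidine-rich glycoprotein, Mup21, Mup-ps21 and the chemokine gene Ccl7. The eWAT side of this pattern was fixed by the choice of members.

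**Figure D2:**
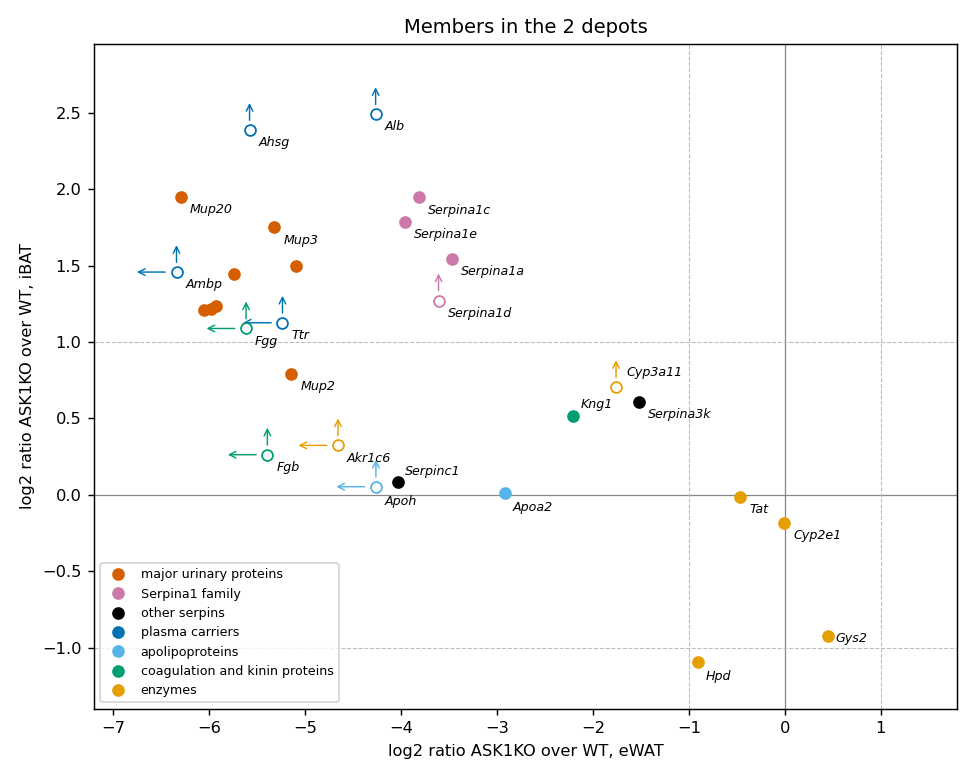
Log2 ratio of ASK1KO over WT in eWAT (x axis) and iBAT (y axis) for members with a value in both; open circles are values limited by background, with arrows pointing to where the true value may lie, and dashed lines mark 2-fold. The Mup and Serpina1 genes sit at the upper left, Serpinc1 and Apoa2 near 0 in iBAT, and the enzymes Tat, Cyp2e1, Gys2 and Hpd at the lower right.

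The major urinary proteins held the 5 lowest measured ratios of any gene in eWAT. All 8 measured members were lower in ASK1KO eWAT, between -6.30 and -5.09 on the log2 scale, and 7 of 8 were at least 2-fold higher in ASK1KO iBAT. The Mup19 probe, which also lists Mup1 and Mup17, gave signals of 1167 in WT iBAT, 2863 in ASK1KO iBAT, 34126 in WT eWAT and 526 in ASK1KO eWAT. WT eWAT thus stood far above the others and ASK1KO eWAT was the lowest. Its log2 ratio was -5.93 in eWAT, a 61.0-fold difference, and 1.23 in iBAT.

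Mup17 followed it closely, with 519.6 in WT iBAT, 1256 in ASK1KO iBAT, 18340 in WT eWAT and 259 in ASK1KO eWAT. The brighter probe named Mup9, whose listed transcripts are those of Mup1, Mup2 and Mup19 and not Mup9, gave 607, 1469, 20066 and 299 in the same order, and Mup4 gave 334, 948, 10828 and 190.4. These 3 probes kept the order seen for Mup19, with which the probes named Mup9 and Mup17 may share signal. The log2 ratios in eWAT were -6.06 for Mup17, -5.98 for Mup9 and -5.74 for Mup4. The Mup9 name also had a second probe, which passed background only in WT eWAT (39.1), and a second Mup4 probe stayed below background on every array, at 4.28 to 4.94.

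Mup20 was read by 2 probes. The first gave 207 in WT iBAT, 479 in ASK1KO iBAT, 7535 in WT eWAT and 92.1 in ASK1KO eWAT. The second gave 32.5, 227, 5719 and 67.2. They differed by little in eWAT, with ratios of -6.27 and -6.32, but read 1.15 and 2.74 in iBAT, a gap well beyond the technical spread. The gene mean in eWAT, -6.30, was the lowest ratio among genes measured on both eWAT arrays. The bounds of Slc6a7 (-12.8), Fabp1 (-6.45) and Ambp (-6.34) lay lower.

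Each of Mup2, Mup3 and Mup5 had a single probe. Mup2 read 168 in WT iBAT, 303 in ASK1KO iBAT, 4953 in WT eWAT and 132 in ASK1KO eWAT, and at 0.79 in iBAT it was the single Mup under the 2-fold line there. Mup3 read 59.5, 209, 3301 and 77.8 in that order, and Mup5 read 42.5, 125, 2008 and 55.4. The log2 ratios of Mup3 and Mup5 were -5.32 and -5.09 in eWAT, and 1.75 and 1.495 in iBAT. On scaled levels all 8 Mup members had the same order of arrays, from WT eWAT through ASK1KO iBAT and WT iBAT down to ASK1KO eWAT.

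The Serpina1 genes encode alpha-1-antitrypsin, the main inhibitor of neutrophil elastase in plasma. Their 4 measured members were lower in ASK1KO eWAT, between -3.96 and -3.47, which is less than any Mup member. The brighter Serpina1a probe gave 141 in WT iBAT, 529 in ASK1KO iBAT, 13237 in WT eWAT and 885 in ASK1KO eWAT. Here WT iBAT, not ASK1KO eWAT, was the lowest array. Serpina1c read 112, 451, 11692 and 782, and the brighter Serpina1e probe 101, 443, 11022 and 586, readings that share bases as shown above.

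In iBAT, Serpina1a, Serpina1c and Serpina1e were higher in ASK1KO by 1.55, 1.95 and 1.78. Serpina1d was not well above background in WT iBAT and read 49.6 in ASK1KO iBAT, 1484 in WT eWAT and 138 in ASK1KO eWAT on its brighter probe, at least 2.41-fold higher in ASK1KO iBAT. Between the ASK1KO arrays the family was nearly level, with eWAT over iBAT between -0.63 and 0.47, whereas every Mup member was lower in ASK1KO eWAT than in ASK1KO iBAT, by between -3.21 and -1.95.

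Neither of the other serpins was 2-fold higher in ASK1KO iBAT. Serpinc1, antithrombin, gave 55.98 in WT iBAT, 61.8 in ASK1KO iBAT, 892 in WT eWAT and 51.3 in ASK1KO eWAT, a log2 ratio of -4.03 in eWAT and 0.08 in iBAT. WT eWAT was the highest array, and on scaled levels ASK1KO eWAT was the lowest, at -1.04 against ASK1KO iBAT. Serpina3k, an inhibitor of tissue kallikrein, gave 43.5, 69.2, 2151 and 706 in the same order and had the smallest eWAT difference of the serpins in the set, with ratios of -1.52 in eWAT and 0.61 in iBAT.

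The plasma carriers were the group with the largest gap in detection between the iBAT arrays. Alb, albumin, was not well above background in WT iBAT (7.501) and gave 115 in ASK1KO iBAT, 3234 in WT eWAT and 158 in ASK1KO eWAT. Its ratio was -4.26 in eWAT, and it was at least 5.62-fold higher in ASK1KO iBAT. Ahsg, fetuin-A, an inhibitor of calcium phosphate crystal growth, was likewise dim in WT iBAT (5.02), with 107.5 in ASK1KO iBAT, 2934 in WT eWAT and 57.8 in ASK1KO eWAT. Its ratio was -5.58 in eWAT, and in iBAT ASK1KO was at least 5.23-fold higher.

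Ambp, the precursor of alpha-1-microglobulin and bikunin, was well above background in ASK1KO iBAT (56.4) and WT eWAT (1783) and in neither of the other arrays. ASK1KO eWAT was therefore at least 81.0-fold lower and ASK1KO iBAT at least 2.75-fold higher than WT. Ttr, transthyretin, the carrier of thyroxine and of retinol-binding protein, showed the same detection, with 44.8 in ASK1KO iBAT and 829 in WT eWAT. The bounds for Ttr were 37.7-fold lower in eWAT and 2.18-fold higher in iBAT. All 4 carriers thus passed background in ASK1KO iBAT and none did in WT iBAT.

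Of the 4 apolipoproteins, Apoa1 and Apob passed background in WT eWAT alone. Apoa1, the main protein of high-density lipoprotein, was printed at 10 spots and is the member with its own technical error: in WT eWAT all 10 spots were well above background, at 157 ± 9.27 (SD over spots), with a lowest, median and highest spot of 138, 158 and 168. On the other arrays 0 spots passed, with means from 4.74 to 7.52. ASK1KO eWAT was at least 7.11-fold lower. Apob, which forms the shell of very-low-density lipoprotein, passed on both of its probes in WT eWAT only (181 and 51.8), at least 8.20-fold above ASK1KO eWAT on the brighter.

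Apoh, beta-2-glycoprotein I, which binds anionic phospholipids, gave 422 in WT eWAT and 21.3 in ASK1KO iBAT, just over background, and failed on the other arrays. It was at least 19.2-fold lower in ASK1KO eWAT. Apoa2, the second protein of high-density lipoprotein, split by probe. One probe gave 195 in WT iBAT, 191 in ASK1KO iBAT, 2040 in WT eWAT and 56.8 in ASK1KO eWAT, a ratio of -5.08 in eWAT. The other gave 3579, 4042, 6820 and 3835, a ratio of -0.74. The gene mean of -2.91 thus averaged values that disagreed, and both probes were near 0 in iBAT (-0.09 and 0.11).

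Among the clotting and kinin proteins, the fibrinogen chains Fgb and Fgg passed background in WT eWAT and ASK1KO iBAT and on neither of the other arrays. Fgg gave 1079 in WT eWAT and 43.7 in ASK1KO iBAT, with 4.01 in WT iBAT and 4.19 in ASK1KO eWAT. It was at least 49.0-fold lower in ASK1KO eWAT and at least 2.13-fold higher in ASK1KO iBAT. Fgb gave 925 in WT eWAT and 24.6 in ASK1KO iBAT, at least 42.0-fold lower in ASK1KO eWAT and at least 1.20-fold higher in ASK1KO iBAT, a bound that does not reach 2-fold. Fga, the third chain, passed only in WT eWAT at 24.8, too near the limit of detection for a fold beyond 1.13.

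F2, prothrombin, and Plg, plasminogen, the zymogen of the enzyme that dissolves fibrin, passed only in WT eWAT, at 441 and 190.04. Their bounds in ASK1KO eWAT were 20.04-fold and 8.63-fold lower. In iBAT neither was well above background, although F2 read 17.1 in ASK1KO and 4.91 in WT. Kng1, which encodes the kininogens from which bradykinin is cut, stood apart from the set: its brighter probe, which also lists Kng2, gave 17473 in WT iBAT, 26114 in ASK1KO iBAT, 1389 in WT eWAT and 283 in ASK1KO eWAT. On that probe Kng1 was highest in brown fat in both genotypes, with ratios of -2.21 in eWAT and 0.52 in iBAT. The dimmer probe, which lists Kng2 too, passed in WT eWAT (46.9) and ASK1KO iBAT (28.2). It did not pass in WT iBAT (19.6) or ASK1KO eWAT (4.96). In WT the dimmer probe was thus at least 1.26-fold higher in eWAT than in iBAT, the other way from the brighter probe.

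The enzymes held most of the members that were not 2-fold lower in ASK1KO eWAT. Cyp2e1, the cytochrome P450 that oxidises ethanol, was read by 2 probes, and the brighter gave 21559 in WT iBAT, 20985 in ASK1KO iBAT, 284080 in WT eWAT and 267346 in ASK1KO eWAT. It was much higher in eWAT than in iBAT and did not differ between genotypes beyond the technical spread in eWAT (-0.00). Gys2, the glycogen synthase of liver, gave 10018, 5002, 2324 and 3126 in the same order on its brighter probe. It was brighter in iBAT than in eWAT, with ratios on that probe of 0.52 in eWAT and -1.06 in iBAT, the reverse of most members. The mean over its 2 probes was 0.45 in eWAT and -0.93 in iBAT, short of 2-fold.

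Tat, tyrosine aminotransferase, was nearly flat at 194, 201, 293 and 200.2, a ratio of -0.46 in eWAT and -0.01 in iBAT. Hpd, which acts after Tat in tyrosine breakdown, gave 52.6, 25.7, 143 and 72.2 and had ratios below 0 in both depots, -0.90 and -1.09. Ugt2b1, a glucuronosyltransferase, passed only in WT eWAT at 21.9, and its ratio could not be resolved. These 5 enzymes and Fga were the 6 members that were not 2-fold lower in ASK1KO eWAT.

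Akr1c6, a steroid dehydrogenase of the aldo-keto reductase family, read 555 in WT eWAT and 25.7 in ASK1KO iBAT and was at least 25.2-fold lower in ASK1KO eWAT. Cyp3a11, the main drug-oxidising P450 of the mouse liver, was read by 2 probes that disagreed in size. The probe that lists Cyp3a11 alone gave 594 in WT eWAT, 33.5 in ASK1KO iBAT and background elsewhere, at least 26.98-fold lower in ASK1KO eWAT. The probe that lists other Cyp3a genes too gave 121 in WT eWAT and 33.7 in ASK1KO eWAT, a ratio of -1.76.

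The depots were compared within each genotype as a description, since the choice of members used both eWAT arrays and so bears on these counts. In WT mice 29 of 35 members were at least 2-fold higher in eWAT than in iBAT, against 15.2% of detected genes. Another 2, Kng1 (-4.57, on its brighter probe) and Gys2 (-3.05), were lower, against 16.3%. In ASK1KO mice 2 of 29 detected members, Serpina3k and Cyp2e1, were higher in eWAT, against 13.7% of genes, and 18 were lower, against 13.6%. These contrasts share arrays with those between genotypes, so they restate the same 4 readings from another side, and nothing is read from the counts or their difference between genotypes.

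The difference between WT eWAT and ASK1KO iBAT, arrays that differ in both depot and genotype, was taken as a description, since high levels in WT eWAT were part of what the members were chosen on. Over the 29 members measured on both, WT eWAT exceeded ASK1KO iBAT by a median of 3.31 on the log2 scale, and all genes had a median of -0.04. By group the range was 2.66 to 3.46 for the 8 Mup genes, 3.33 to 4.08 for the 4 Serpina1 genes and 3.35 to 4.12 for the 4 carriers. The highest of all was Fgb (4.37). The lowest were Kng1 (-2.61), Gys2 (-2.12), Tat (-0.32), Apoa2 (1.23), Hpd (1.62) and Cyp3a11 (2.55).

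Sequence upstream of the genes gave a feature that the choice did not use. RefSeq promoters (GRCm38.p6, 250 bases before to 50 after the start) were on hand for 30 of the 38 symbols and were searched on both strands for letters of liver factor motifs. The letters GTTAAT, the core that HNF1 recognises, occurred in 9 of 30 (30.0%), against 7.10% of 32851 promoters. The 9 were Alb, F2, Fga, Fgb and the 5 Serpina1 genes. With the Mup and Serpina1 families as 1 unit each, 5 of 20 units (25%) held it. Stretches of 60 bases are shown for 5 of them, with the match in capitals on the strand of the gene: Alb (chr5:90460810-90460869), Fga (chr3:83026083-83026142), Fgb (chr3:83049864-83049923), Serpina1a (chr12:103863620-103863679) and Serpina1e (chr12:103956943-103957002).
Alb: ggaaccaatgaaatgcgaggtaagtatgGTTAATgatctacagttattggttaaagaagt
Fga: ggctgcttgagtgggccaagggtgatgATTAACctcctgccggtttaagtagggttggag
Fgb: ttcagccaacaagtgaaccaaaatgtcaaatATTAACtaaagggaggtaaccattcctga
Serpina1a: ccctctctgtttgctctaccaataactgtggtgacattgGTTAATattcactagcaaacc
Serpina1e: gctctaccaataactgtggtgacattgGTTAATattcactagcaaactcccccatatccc

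The same stretch recurs in the Serpina1a and Serpina1e promoters at 21 and 78 bases before the annotated starts. The letters TGTTTAC of FOXA factors occurred in 3 of 30 (10.0% against 3.65%), CAAAGTCCA of HNF4 in 1 (3.33% against 0.475%) and TATAAA in 6 (20% against 13.6%). A match describes letters and not a bound factor.

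Other hepatocyte genes, from lists that share no gene with the set, included many that were lower in ASK1KO eWAT. Of 37 other secreted hepatocyte proteins, 34 were detected in eWAT, 18 were at least 2-fold lower in ASK1KO (12 by bounds) and 0 were higher. The measured median was -0.83, from Hpx (-3.75) to Lcat (0.02), which esterifies plasma cholesterol, and the strongest bound was that of Gc, at least 62.2-fold lower. Of 46 other hepatocyte enzymes and transporters, 41 were detected, 23 were lower (16 by bounds) and 0 higher, with a measured median of -0.88 from Fbp1 (-2.88), a gluconeogenic phosphatase, to Fah (0.14), the last enzyme of tyrosine breakdown. The strongest bound there was that of Bhmt, which methylates homocysteine, at least 67.6-fold lower. The share of all genes that were lower was 1.64%, as above.

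Detection on these lists followed the members across all 4 arrays. Secreted hepatocyte genes well above background on their brightest probe numbered 15 in WT iBAT, 22 in ASK1KO iBAT, 34 in WT eWAT and 20 in ASK1KO eWAT. For the enzymes and transporters the numbers were 12, 21, 41 and 16. In iBAT 2 secreted genes, Gc and Hrg, and 1 enzyme, Cyp4a14, were at least 2-fold higher in ASK1KO, all by bounds, and measured medians were 0.08 and 0.10. Measured iBAT ratios ran from Pon1 (-0.64) to Hpx (0.50) on the first list and from Fah (-0.37) to Kmo (0.77) on the second.

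The factors that drive hepatocyte genes were detected only in part. Of 12 liver transcription factors 6 were detected in eWAT, and Cebpa, also on the white adipocyte list, was bright on all 4 arrays (10947 to 25028). Hnf4a, the nuclear receptor at the head of the hepatocyte programme, had a ratio of -1.97 and was the only factor 2-fold lower. The 5 measured factors had a median of 0.08, 3 of them above 0, and the highest, Nr1h4, the bile acid receptor, stood at 0.22. In iBAT the 4 detected factors lay between Nr1h4 (-0.61) and Nr5a2 (0.16), with 0 past 2-fold. Among 10 acute phase genes, 9 were detected in eWAT, and Saa3, which adipose tissue and macrophages also make, had a ratio of -1.86, while Orm1 stood at 0.58. Of 19 further Mup and clade A serpin genes on the array, 14 were detected in eWAT, and Mup21, Mup6 and Serpina6 were lower by bounds, the first at least 24.4-fold. The measured ratios ran from Serpina3b (-0.49) to Serpina3j (0.57). In iBAT Mup21 and Serpina3f were higher in ASK1KO by bounds of 1.25 and 1.27, and the 5 acute phase genes detected there lay between Orm1 (-0.46) and Lcn2 (0.26).

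**Figure D3:**
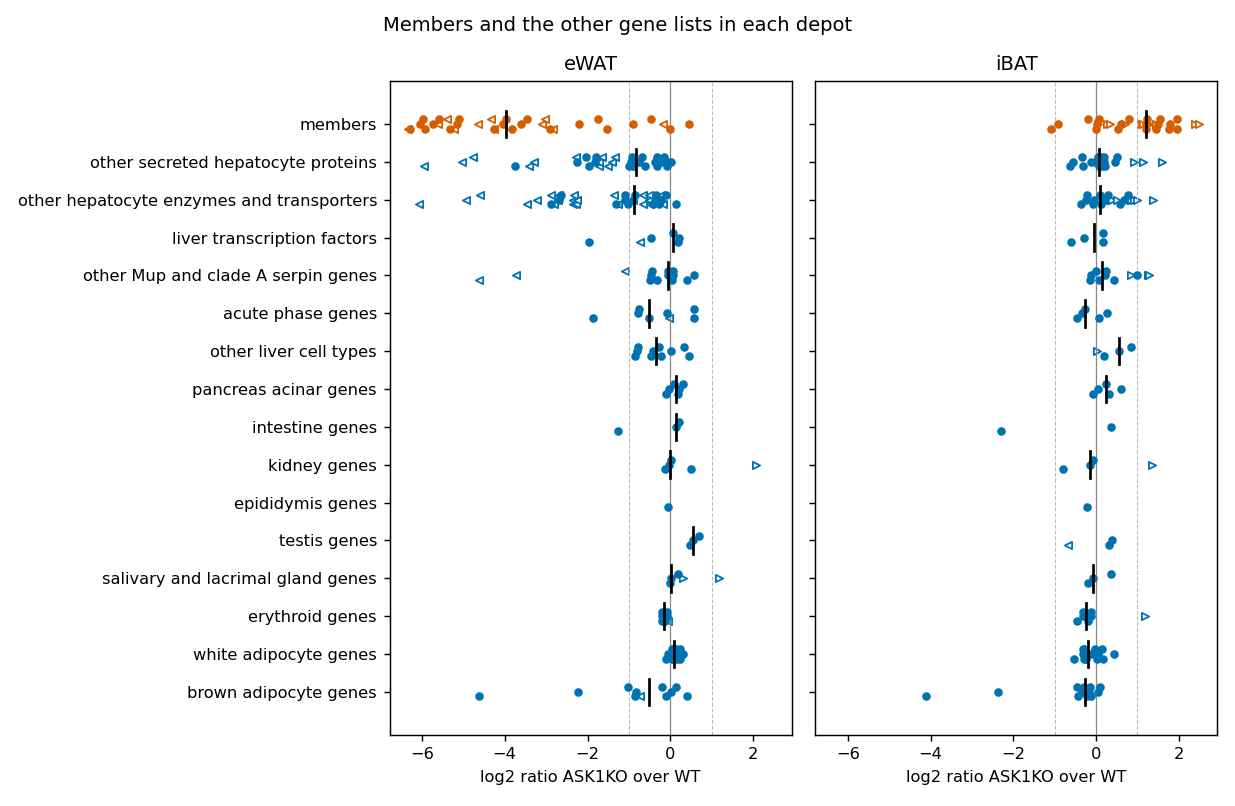
Log2 ratio of ASK1KO over WT for each gene of the members (top) and of the other gene lists, in eWAT (left) and iBAT (right); circles are measured, triangles are bounds that point away from 0, and black ticks are medians of measured genes where there were at least 3. The members and the hepatocyte lists extend to the left in eWAT, while white adipocyte genes stay between -0.09 and 0.30 there.

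Genes of other cells that a dissection of this fat pad could include are given beside these values. Of 15 genes of other liver cells (Kupffer, sinusoidal, bile duct and stellate), 10 were detected in eWAT and 0 passed 2-fold. Their median was -0.34, from Cd5l (-0.86) to Stab2 (0.45). In iBAT 5 were detected and 0 passed 2-fold. The 3 measured there ran from Oit3 (0.19) to Sox9 (0.83), with a median of 0.56. Clec4f, Lrat and Reln were not well above background on any array. Krt19 was the brightest of the list in WT eWAT (2513). Whether cells of the fat pad itself made the detected transcripts was not tested. The summed signal of the list over the 75th percentile of the array was 7.65 in WT eWAT, 6.41 in ASK1KO eWAT, 0.63 in WT iBAT and 0.81 in ASK1KO iBAT. For all 35 members the sums were 668 in WT eWAT, 442 in ASK1KO eWAT, 159 in WT iBAT and 178 in ASK1KO iBAT. Without Cyp2e1, Gys2, Kng1 and Apoa2, left out after their brightness in fat was seen, they were 230.1, 8.51, 10.997 and 26.9 in that order. The other secreted hepatocyte proteins summed to 122, 156, 125 and 128 in that order. The other hepatocyte enzymes and transporters summed to 703, 594, 1140 and 1101. Neither list kept the members' order of arrays. Bright genes such as F10 and Slc10a1 weigh on these sums, and no sum without them was taken. Whether liver RNA or transcription in fat lay behind the members' signal was not tested, and in a bulk extract fewer cells of a type and less RNA per cell cannot be told apart.

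Epididymal genes, the duct next to this fat pad, were near background throughout: 13 of 14 failed on every array, and the one detected, Rnase10, had a ratio of -0.04 in eWAT. Of 16 pancreatic acinar genes 6 were detected in eWAT and 0 passed 2-fold, with Ctrb1 the lowest (-0.10). Of 10 intestine genes 3 were detected, from Fabp2 (-1.27) to Vil1 (0.20), of 10 kidney genes 5, with Cdh16 higher by a bound of 2.07, of 10 testis genes 3, from Prm2 (0.47) to Tcp11 (0.68), and of 9 salivary and lacrimal genes 5, from Obp1a (0.00) to Pip, by a bound of 1.17. In iBAT these lists held 0 genes past 2-fold apart from Vil1 (-2.29) and Cdh16, higher by a bound of 1.35. The 9 erythroid genes showed no 2-fold change in eWAT, with measured values from Slc4a1 (-0.21) to Hba-a2 (-0.08).

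The fat cells themselves gave a level reading in eWAT. All 14 white adipocyte genes were well above background on all 4 arrays and none passed 2-fold, with eWAT ratios from Pparg (-0.09) to Lep (0.30) and iBAT ratios from Lpl (-0.53) to Lep (0.44). Some brown adipocyte genes were also lower in ASK1KO eWAT: 3 of 11 detected were at least 2-fold lower, Ucp1 (-4.63), Cidea (-2.23), a lipid droplet protein, and Dio2 (-1.02), the enzyme that activates thyroid hormone, and the highest was Zic1 (0.40). In iBAT the list ran from Elovl3 (-4.10), a fatty acid elongase, to Lhx8 (0.10), with 2 of 12 lower and 0 higher. The part of this in the members' values was not tested.

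The targeted gene was at least 2-fold lower on 1 of its 2 probes in both depots. The Map3k5 probe spanning mm9 chr10:19860474-19861330 gave 448 in WT iBAT, 117 in ASK1KO iBAT, 701 in WT eWAT and 194 in ASK1KO eWAT, log2 ratios of -1.76 in eWAT and -2.002 in iBAT. The probe at chr10:19862193-19862252 gave 1081, 1082, 1264 and 836, ratios of -0.51 and -0.06. Which of these lies in the deleted part is not given in the sources used here. The member spots were spread over rows 18 to 360 of 384 on the array, and the 244 measured spots next to them had a median eWAT ratio of 0.01, with 2 of them 2-fold lower.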

How the data were processed

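RNA of 4 pools, each from 3 male mice, was hybridised to one-colour Agilent arrays, and the files were extracted with Agilent Feature Extraction 10.7.3.1 per the file headers. The spot intensity values the authors deposited include a background-subtracted processed intensity, its background call and outlier flags; probe positions are on mm9. The deposited series value table holds that processed signal divided by a constant per array that sets the median to 1, and it was used as an alternative. All 4 arrays share a slide.

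Flagged outlier spots and control spots were left out, spots of a probe were averaged on the log2 scale, and the 75th percentile of all probes was subtracted from each array. A log2 ratio, ASK1KO minus WT, was taken where a probe was well above background on both arrays. Where it passed on 1 array, a bound was set from the lowest signal well above background, or the dim probe's own signal if higher. Genes with several probes took the mean of measured ratios, or else the strongest bound. Called genes were at least 2-fold higher or lower. Of 34844 gene names, 22078 matched RefSeq. With 1 array per condition no test was run. A fit of genotype and depot over all 4 arrays was not run either, since it would average the contrast used to choose the members with the other. The number of arrays limits the precision. The code was tested on simulated data with known changes.

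All members were named, with Map3k5, genes at the ends of each list's range in eWAT, in iBAT for the lists nearest the members, and the 20 lowest measured ratios in eWAT; some list genes are not reported here. Mup-ps21, the unnamed probes, and a few further genes were named after their values were seen. The members and the 15 gene lists were chosen with earlier results of these data known. Python 3.11.15, numpy 2.4.6, pandas 2.3.3 and, for normexp, limma 3.58.1 in R 4.3.3 were used.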

Additional observations from a re-analysis of the deposited data

Results flagged for a closer look

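For 16 members the difference between ASK1KO and WT ran in opposite directions in the depots, lower in eWAT and higher in iBAT, with 1 array per condition. The difference between the depots was not tested, and its eWAT side was used to choose the members. Values are the iBAT log2 ratio minus the eWAT log2 ratio. Among the major urinary proteins it was 8.24 for Mup20, 7.27 for Mup17, 7.19 for Mup9, 7.18 for Mup4, 7.17 for Mup19, 7.07 for Mup3 and 6.59 for Mup5. In the Serpina1 family it was 5.76 for Serpina1c, 5.75 for Serpina1e, 5.02 for Serpina1a and at least 4.88 for Serpina1d. The carriers and Fgg, dim on 1 or more arrays, gave lower bounds, which were 7.97 for Ahsg, 7.80 for Ambp, 6.75 for Alb, 6.36 for Ttr and 6.70 for Fgg. The Mup and Serpina1 values come from probes that may share signal.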

How the results depend on the processing

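The labels give no replicate numbers to use as a block, and a fit that pairs the genotypes by depot was not run. With 1 array per condition no array could be left out, and the slide, shared by all, could not be used as a block. Of 12 alternatives, 11 planned and 1 chosen after seeing the data, none changed the direction of either median. The count of members lower in ASK1KO eWAT stayed between 23 and 31, apart from 15 when only probes well above background on all 4 arrays were kept without bounds and 19 when the Mup and Serpina1 families were 1 unit each. The eWAT median moved beyond the technical spread without scaling (-4.05), with normexp (-3.66), without the filter on dim probes (-4.29), with the brightest probe (-4.03) and with families as units (-2.21).

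The count higher in ASK1KO iBAT was 9 with normexp, 10 without bounds and 7 with families as units, against 16; the iBAT median was 0.70 with normexp, 1.32 with the percentile over probes detected on all 4 arrays, 0.046 with families as units and 0.61 without probes that list several genes, the alternative added later. The count lower in ASK1KO iBAT was 0 with that percentile and with normexp, and 2 with median centring, the series value table, the brightest probe or a 1.5-fold line, against 1. Without the filter, Mup9 in iBAT turned to -0.41, since its second probe, at background on both iBAT arrays, then entered the mean. Of 589 member values over the alternatives, 419 stayed within the technical spread, 169 moved further in size and 1 reversed. Of 1050 values for the gene lists, 916 stayed (counts within 1.5 times, medians within the technical spread), 134 moved and 0 reversed. Signal near background limits the dim members, whose folds are bounds.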
